A study of Rattus norvegicus with 9 samples.

Results

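The unconventional myosins of the sensory hair bundle were followed in the vestibular epithelium of adult rats exposed to a toxic nitrile. Myo7a, Myo15a, Myo6, Myo3a, Myo3b, Myo1c and Myo1h were listed by name, and 6 of the 7 were matched by gene symbol among the 32883 genes of the count table (Myo1h was not analysed here). All 6 passed the filter on low counts that left 15517 genes for testing. The animals were male Long-Evans rats with no genetic modification named in the labels. IDPN-3wk and IDPN-7wk rats drank water with 20 mM 3,3′-iminodipropionitrile (IDPN) for 3 or 7 weeks, and Control rats drank plain water. Each of the 3 libraries per group came from 1 rat, whose 6 cristae and 2 utricles were pooled, so hair cells (HCs) were sequenced together with supporting cells, nerve terminals and other cells of the tissue. The 3 groups were compared to ask how the expression of these motors changed with exposure.

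The hair bundle is the mechanosensitive organelle of the HC, a staircase of actin-filled stereocilia whose tips are joined by fine links. Unconventional myosins walk along or hold on to this actin: they carry building material to the stereocilia tips, anchor the links, tension the transduction channels and fix the membrane at the base of the bundle. Mutations in several of them cause deafness or loss of balance, and Myo7a is widely used as a label for HCs.

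Library totals ranged from 31100118 to 46018385 counts, so that 3 counts amounted to between 0.0652 and 0.0965 CPM (counts scaled to a common library size). When depth was equalised, between 15387 and 15498 genes were detected in 3 libraries (Control replicate 3 and replicates 1 and 2 of IDPN-3wk) and between 16834 and 17312 in the other 6. Results that rest on these 3 libraries are given with and without them. The HC markers Myo7a, Pou4f3, Otof, Tmc1, Calb2 and Slc17a8 were detected in every library, but the mean of each was lower in both exposed groups than in Control. Otof, the synaptic calcium sensor of HCs, was between 622 and 772 CPM in Control. It was between 293 and 390 CPM in IDPN-3wk and between 323 and 367 CPM in IDPN-7wk. In pooled tissue, fewer HCs and less RNA per HC cannot be told apart.

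Myo15a and Myo3b fell steeply at both exposure times, to about the same low level at 3 and 7 weeks. Myo6 was lower by less than 1.5-fold, Myo7a was lower in every exposed library without passing the adjusted test, and Myo3a and Myo1c were not called. A gene was called when its adjusted p from the edgeR quasi-likelihood test (Benjamini-Hochberg over all genes tested) was below 0.05 and its fold change was above 1.5. By this rule 2 of the 6 myosins were called lower in IDPN-3wk and 2 of 6 in IDPN-7wk, against 1.21% and 3.13% of all genes tested. No myosin was called higher at either time, where 0.438% and 2.00% of all genes were. The 3 exposed libraries lay below all 3 Control libraries for 4 of 6 myosins at both times, against 10.9% of all genes at 3 weeks and 17.1% at 7 weeks.

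**Figure D1:**
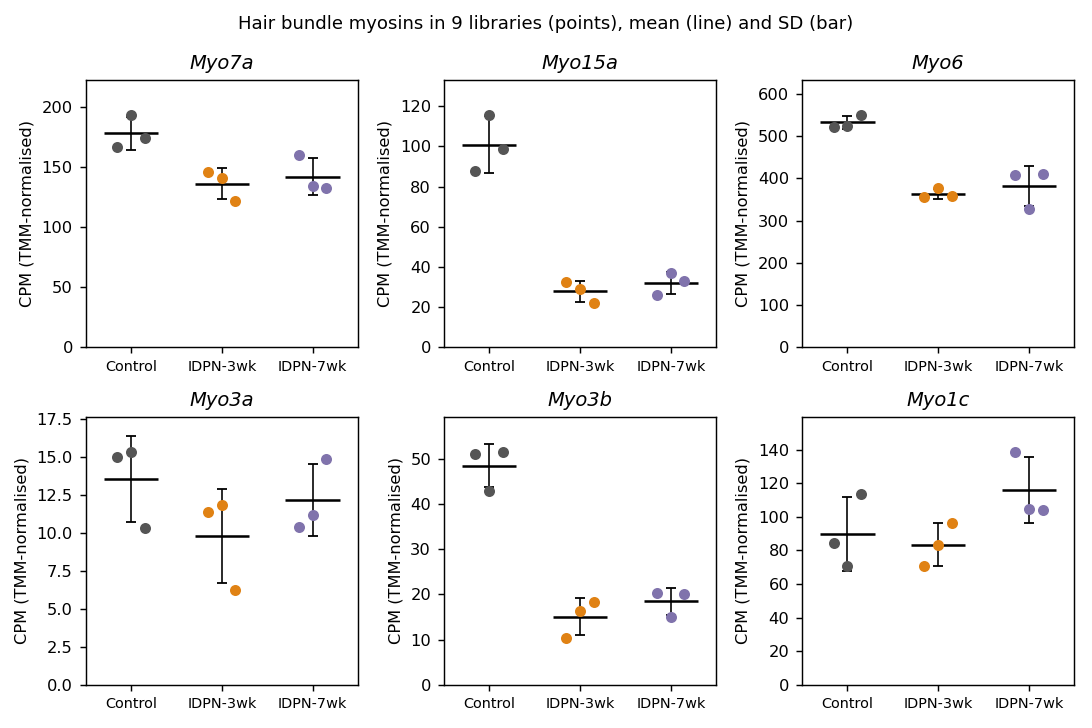
Level of each myosin in CPM (linear axis from 0) in the 9 libraries, 1 point per rat, with the group mean as a horizontal line and the SD as a bar. The exposed libraries sit far below Control for Myo15a and Myo3b, somewhat below it for Myo6 and Myo7a, and overlap it for Myo3a, where IDPN-3wk replicate 3 is the lowest of the 9 libraries.

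Myo15a (ENSRNOG00000059219) is the motor that carries the elongation complex of whirlin, Eps8 and Gpsm2 to the stereocilia tips. Its level was 87.9, 116 and 98.9 CPM in the 3 Control libraries. It was 32.4, 29.0 and 22.3 CPM in IDPN-3wk and 26.3, 37.0 and 33.1 CPM in IDPN-7wk. The highest exposed library therefore lay far below the lowest Control library. The mean level went from 101 ± 14.05 CPM (SD, n = 3) in Control to 27.9 ± 5.15 in IDPN-3wk, a log2 fold change of -1.85 ± 0.187 (SE) and 3.61-fold lower (adjusted p = 0.00158, edgeR quasi-likelihood test). At 7 weeks it was 32.1 ± 5.44 CPM, 3.14-fold lower than Control, with a log2 fold change of -1.65 ± 0.185 (adjusted p = 0.000803). Ranked by p among all genes tested, Myo15a stood at position 16 in IDPN-3wk versus Control.

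Myo3b (ENSRNOG00000030022) and its paralogue Myo3a are class III myosins, which carry a kinase domain and bring espin proteins to the tips of actin protrusions. Myo3b read 51.1, 43.0 and 51.5 CPM in Control, 10.5, 16.3 and 18.4 CPM in IDPN-3wk, and 20.3, 15.03 and 20.1 CPM in IDPN-7wk. All 6 exposed libraries lay below every Control library by a wide margin. The log2 fold change was -1.69 ± 0.227 at 3 weeks (3.23-fold lower, adjusted p = 0.00679) and -1.39 ± 0.224 at 7 weeks (2.63-fold lower, adjusted p = 0.00556).

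Over all 9 libraries Myo3a (ENSRNOG00000018478) gave another picture from that of its paralogue. It read 14.99, 15.3 and 10.3 CPM in Control, 11.3, 11.8 and 6.21 CPM in IDPN-3wk, and 10.4, 11.2 and 14.8 CPM in IDPN-7wk. The groups overlapped at both times. Its log2 fold changes of -0.47 at 3 weeks (95% interval -1.12 to 0.19, adjusted p = 0.483) and -0.16 at 7 weeks (-0.81 to 0.49, adjusted p = 0.846) did not pass the test, and the intervals still allow a fall of more than 1.5-fold. The contrast at 3 weeks depended on the libraries. Among those with more detected genes Myo3a differed from Control by -1.22, beside -1.32 for Myo3b. Among those with fewer it differed by 0.16, beside -1.94, each with 1 or 2 libraries per group. Over 19 alternatives the 3-week value of Myo3a ranged from -1.29 to -0.23, and 0 of them gave an adjusted p below 0.05. Reads that fit both paralogues were shared between them by an estimate, so the split between Myo3a and Myo3b carries an uncertainty that the counts do not show.

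Sequence upstream of the start is shown for Myo3b, a called member, beside Myo7a, the marker that the other members are set against below. Both come from the RefSeq annotation of the GRCr8 build, which is later than the build used for the counts, and cover 250 bases before to 50 bases after the annotated start, written 5′ to 3′ on the strand of the gene. Of the 7 listed genes 5 had a promoter entry, and Myo15a and Myo3a did not. Capitals mark matches, on either strand, to the E-box CAGNTG bound by many basic helix-loop-helix factors, to the GC box GGGCGG and to TATAA, the core of the TATA box.
Myo3b, chr3:75227767-75228066, plus strand: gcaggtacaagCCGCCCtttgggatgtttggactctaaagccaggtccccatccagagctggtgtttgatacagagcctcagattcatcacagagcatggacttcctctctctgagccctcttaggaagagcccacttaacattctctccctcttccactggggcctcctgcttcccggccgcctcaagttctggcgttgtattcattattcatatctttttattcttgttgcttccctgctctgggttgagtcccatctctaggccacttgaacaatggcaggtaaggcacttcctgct
Myo7a, chr1:161818528-161818827, minus strand: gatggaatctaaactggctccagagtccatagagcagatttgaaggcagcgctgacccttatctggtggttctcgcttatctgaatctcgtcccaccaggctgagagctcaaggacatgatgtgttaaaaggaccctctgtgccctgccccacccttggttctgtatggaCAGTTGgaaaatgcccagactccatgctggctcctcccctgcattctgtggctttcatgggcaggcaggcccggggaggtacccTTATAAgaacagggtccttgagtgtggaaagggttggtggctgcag
The Myo3b window held 1 GC box and no other match. The Myo7a window held 1 E-box and 2 overlapping TATAA matches, 1 on each strand. Among 33469 RefSeq promoter windows of this length, 50.2% held the E-box, 33.1% the GC box and 26.2% TATAA, so that each of these matches is common.

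Myo7a (ENSRNOG00000013641), the Usher syndrome myosin that holds the upper end of the tip link together with harmonin and Ush1g, was 166, 193 and 174 CPM in Control. It was 146, 141 and 122 CPM in IDPN-3wk and 160, 134 and 132 CPM in IDPN-7wk. All 6 exposed libraries were below the lowest Control library, in IDPN-7wk replicate 1 by a small margin. The log2 fold change was -0.39 ± 0.113 at 3 weeks (adjusted p = 0.128) and -0.33 ± 0.113 at 7 weeks (adjusted p = 0.137), with unadjusted p of 0.00648 and 0.0159 in the same edgeR fit. The 95% intervals, -0.64 to -0.13 and -0.58 to -0.075, exclude a fall as large as that of Myo15a or Myo3b.

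Myo6 (ENSRNOG00000011852) walks towards the minus end of actin and anchors the membrane at the base of the stereocilia. It read 521, 525 and 551 CPM in Control, 357, 377 and 358 CPM in IDPN-3wk, and 407, 327 and 411 CPM in IDPN-7wk. The groups did not overlap, and the Control libraries varied least among the 6 myosins relative to their mean, with a coefficient of variation of 3.03% around 533 CPM. The log2 fold change was -0.55 ± 0.0964 at 3 weeks (1.46-fold lower, adjusted p = 0.0208) and -0.48 ± 0.0963 at 7 weeks (1.39-fold lower, adjusted p = 0.0163), so Myo6 passed the adjusted test without reaching the fold limit. The adjusted p for Myo6 was not stable: it stayed below 0.05 in 13 of 19 other settings at 3 weeks and in 14 of 19 at 7 weeks. Leaving out Control replicate 1, 2 or 3 took it to between 0.0679 and 0.0801 at 3 weeks and to between 0.0507 and 0.0560 at 7 weeks. It was also above 0.05 at 3 weeks without IDPN-3wk replicate 1 (0.0600) or replicate 2 (0.0502), and highest (0.154) without the 3 libraries with fewer detected genes.

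Myo1c (ENSRNOG00000004072), a short-tailed motor implicated in the adaptation of the transduction channel and expressed in many other cell types, was the only member whose mean was not below Control at 7 weeks. It read 84.6, 70.8 and 114 CPM in Control, 70.5, 83.2 and 96.2 CPM in IDPN-3wk, and 139, 105 and 104 CPM in IDPN-7wk. The log2 fold change was -0.11 at 3 weeks (95% interval -0.53 to 0.32, adjusted p = 0.843) and 0.37 at 7 weeks (-0.058 to 0.80, adjusted p = 0.338). Control replicate 3, 1 of the libraries with fewer detected genes, held the highest Control value. Without it the 3-week value was 0.10, on the other side of 0. Without all 3 libraries with fewer detected genes, a setting chosen after seeing the data, the 7-week log2 fold change was 0.57, with an adjusted p of 0.0404 and still below the fold limit.

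**Figure D2:**
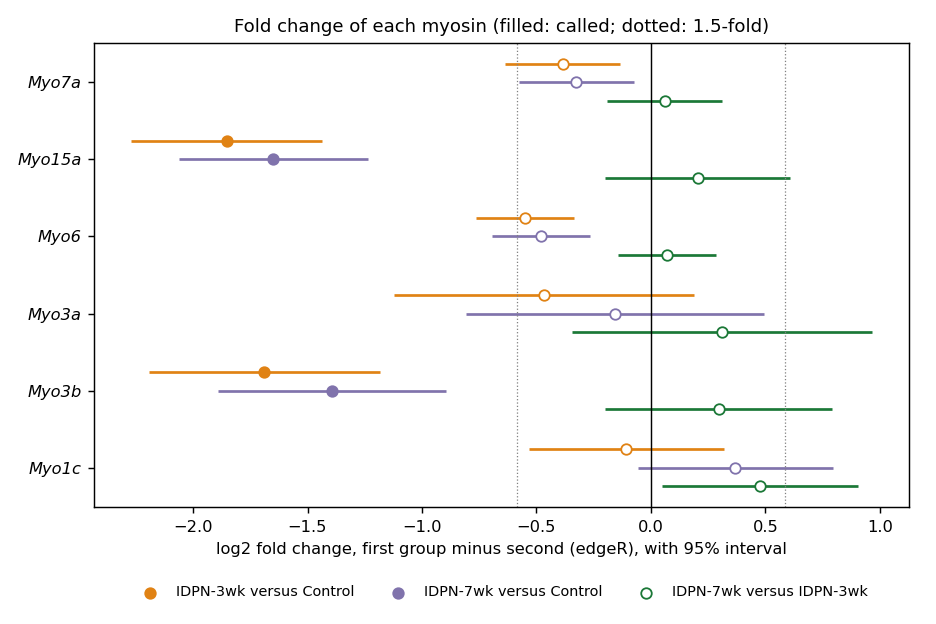
Log2 fold change of each myosin in the 3 comparisons (points, filled where called) with its 95% interval (line), and dotted lines at a 1.5-fold change. Myo15a and Myo3b stand apart on the left in both comparisons with Control, and the intervals of IDPN-7wk versus IDPN-3wk include 0 for all members but Myo1c.

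The later exposure was also set directly against the earlier. Tissue was taken on the last day of treatment, so exposure time cannot be told apart from the age of the rats or the date of collection. Neither edgeR nor DESeq2 called any myosin between the exposure times, where edgeR called 0.135% of all genes lower and 0.348% higher. In the edgeR test 1 of the 6 (Myo1c) had an unadjusted p below 0.05, as did 2140 of all 15517 genes tested. The difference for Myo15a was 0.20 on the log2 scale (95% interval -0.20 to 0.61) and for Myo3b 0.30 (-0.20 to 0.79). A further fall of more than 0.20 between 3 and 7 weeks therefore lay outside the interval of both genes. Myo7a differed by 0.060 (-0.19 to 0.31), Myo6 by 0.070 (-0.14 to 0.28) and Myo3a by 0.31 (-0.34 to 0.96). Myo1c was higher in all 3 IDPN-7wk libraries than in any IDPN-3wk library, as were 12.1% of all genes, with a difference of 0.48 (0.049 to 0.90) and an adjusted p of 0.310.

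Division by Myo7a in the same library showed whether the motors changed by unequal amounts in the same tissue. Myo15a read between 53.0% and 59.9% of Myo7a in the Control libraries, between 18.7% and 22.5% in IDPN-3wk, and between 16.7% and 27.9% in IDPN-7wk. The mean log2 ratio of the 6 exposed libraries minus that of the 3 Control libraries was -1.38, and 6 of 6 exposed libraries lay below every Control library. The exact permutation test over the 84 ways to choose the Control libraries gave p = 0.0119, the smallest it can give, and 0.0298 after Benjamini-Hochberg adjustment over the 5 ratios tested (two-sided). Myo3b behaved alike in this measure: it went from between 22.4% and 30.9% of Myo7a in Control to between 7.51% and 15.5% at 3 weeks and between 11.6% and 15.5% at 7 weeks. Its log2 ratio differed by -1.18, with 6 of 6 exposed libraries below Control and the same exact permutation p of 0.0119 (adjusted 0.0298).

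The other ratios did not pass the test over all exposed libraries. The log2 ratio of Myo6 to Myo7a differed by -0.16 (exact permutation p = 0.143, adjusted 0.179), with 4 of 6 exposed libraries below all Control libraries. That of Myo3a differed by 0.045 (exact permutation p = 0.857). That of Myo1c differed by 0.50 (exact permutation p = 0.0952, adjusted 0.159), with 4 of 6 exposed libraries above all Control libraries. The 3 IDPN-7wk libraries were among these 4: Myo1c was between 36.8% and 65.5% of Myo7a in Control and between 78.5% and 86.9% in IDPN-7wk, a log2 difference of 0.71 for which the exact permutation test of 3 against 3 libraries cannot go below p = 0.1 (adjusted p = 0.167). Gene lengths were not used here, so a percentage of Myo7a compares libraries and not the abundance of 2 genes.

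**Figure D3:**
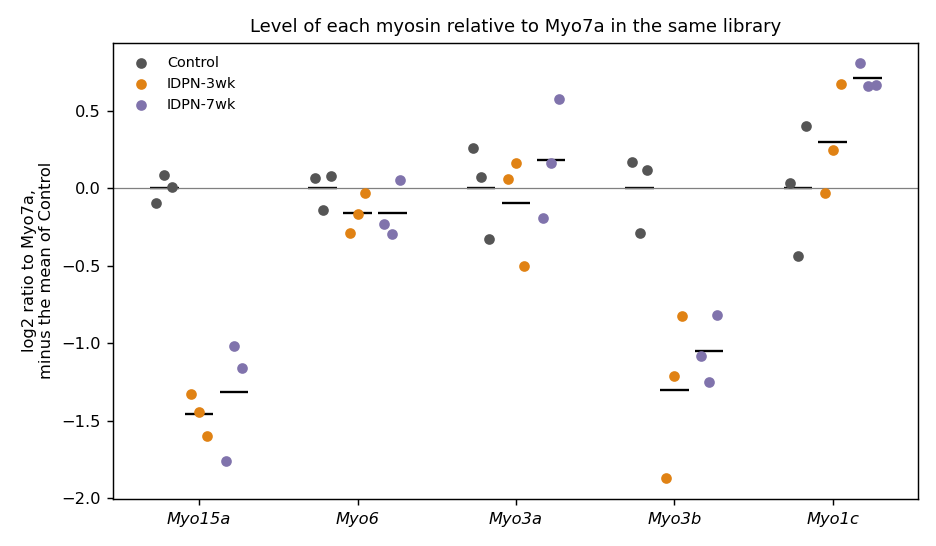
Log2 ratio of each myosin to Myo7a within a library, with the Control mean of that gene set to 0 (points are libraries, lines are group means). For Myo15a and Myo3b all 6 exposed libraries lie below the Control libraries, and for Myo6 and Myo3a exposed and Control libraries overlap. For Myo1c the IDPN-3wk libraries overlap Control and the IDPN-7wk libraries lie above it.

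Each myosin was also set against the mean log2 level of 25 other HC genes. The change of this difference from Control was -1.22 at 3 weeks and -0.81 at 7 weeks for Myo15a, and -1.06 and -0.54 for Myo3b. For the others it was 0.24 and 0.51 (Myo7a), 0.076 and 0.35 (Myo6), 0.15 and 0.69 (Myo3a), and 0.54 and 1.22 (Myo1c). The levels of Myo15a and Myo3b thus changed downwards by more than the list mean at both times, and those of the other 4 did not. These values are a description with no test, and the list was chosen with earlier results of these data known.

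Within the libraries with fewer detected genes, and apart from them within the others, the 2 called members kept their direction. The log2 difference of Myo15a between IDPN-3wk and Control was -1.67 in the first set and -2.15 in the second, and that of Myo3b was -1.94 and -1.32. At 7 weeks, where only the second set holds libraries, Myo15a differed by -1.65 and Myo3b by -1.33. Myo7a (-0.28 and -0.56) and Myo6 (-0.59 and -0.55) were likewise lower in both sets at 3 weeks. Myo3a (0.16 and -1.22) and Myo1c (-0.57 and 0.31) had opposite signs in the sets, each with 1 or 2 libraries per group.

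Proteins that work with these motors in the bundle were examined as a list of 18 genes, all of which were tested. Of these, 3 were called lower at 3 weeks and 5 at 7 weeks, against 1.21% and 3.13% of all genes tested, and none was called higher. The median log2 fold change was -0.53 and -0.68, against -0.000467 and 0.00970 over all genes tested. It was below 0 for 13 of the 18 genes at 3 weeks and for 14 at 7 weeks. The 6 myosins had a median of -0.51 and -0.40. Without the 3 libraries with fewer detected genes the numbers called were 5 and 9.

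The cargo of Myo15a was not called at either time. Whrn (whirlin, a scaffold) had log2 fold changes of -0.54 at 3 weeks (adjusted p = 0.334) and -0.31 at 7 weeks (adjusted p = 0.582), and Eps8, which caps and bundles actin, had 0.25 and -0.20. Gpsm2 and Gnai3, the polarity proteins of the tip complex, had 0.0071 and 0.21 at 3 weeks and -0.84 and 0.23 at 7 weeks, where the adjusted p for Gpsm2 was 0.120. Mean Whrn was 25.4 CPM in Control, 17.5 in IDPN-3wk and 20.5 in IDPN-7wk.

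Both espins, the actin bundlers that class III myosins move, were called lower at 7 weeks. Espnl averaged 52.6 ± 7.27 CPM (SD, n = 3) in Control, 29.1 ± 4.30 after 3 weeks and 29.6 ± 0.315 after 7 weeks, a log2 fold change of -0.85 at 3 weeks (adjusted p = 0.0236) and of -0.83 at 7 weeks (adjusted p = 0.0115). Espn was 170 ± 18.7 CPM in Control and 61.5 ± 5.63 in IDPN-7wk (log2 fold change -1.47, adjusted p = 0.00499), and its IDPN-3wk libraries spread from 79.7 to 160 CPM (-0.36, adjusted p = 0.483).

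Ptprq, the membrane phosphatase at the stereocilia base where Myo6 acts, showed the smallest adjusted p of the list at both times. It averaged 958 ± 187 CPM in Control, 310 ± 36.3 after 3 weeks and 341 ± 49.1 after 7 weeks, a log2 fold change of -1.63 at 3 weeks (adjusted p = 0.00140) and of -1.49 at 7 weeks (adjusted p = 0.000611). Clic5, another protein of the base, had -0.66 and -0.82 (adjusted p = 0.268 and 0.116), and Rdx, the membrane linker radixin, 0.087 and -0.073. Adgrv1, the large receptor of the ankle links, was called lower at both times (-0.99 and -1.12, adjusted p = 0.0445 and 0.0117).

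Of the tip-link partners of Myo7a, Ush1c (harmonin) was 1157 CPM in Control, 1055 in IDPN-3wk and 790 in IDPN-7wk. Its log2 fold change of -0.55 at 7 weeks had an adjusted p of 0.0245 and a fold of 1.46, under the limit, and it had -0.13 at 3 weeks (adjusted p = 0.653). Cdh23, the upper cadherin of the tip link, was called lower at 7 weeks (-1.29, adjusted p = 0.0384) and had -0.47 at 3 weeks (adjusted p = 0.502). Pcdh15, the lower cadherin of the tip link, was between 5.45 and 11.4 CPM in Control, at most 1.83 CPM in IDPN-3wk and between 0.905 and 1.49 CPM in IDPN-7wk. These groups did not overlap Control, and the log2 fold changes of -3.38 and -2.75 did not pass the adjusted test (adjusted p = 0.1496 and 0.161). Ush1g was at most 0.570 CPM in any library, and its log2 fold changes of -0.73 and 0.61 had intervals that spanned several fold in either direction.

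**Figure D4:**
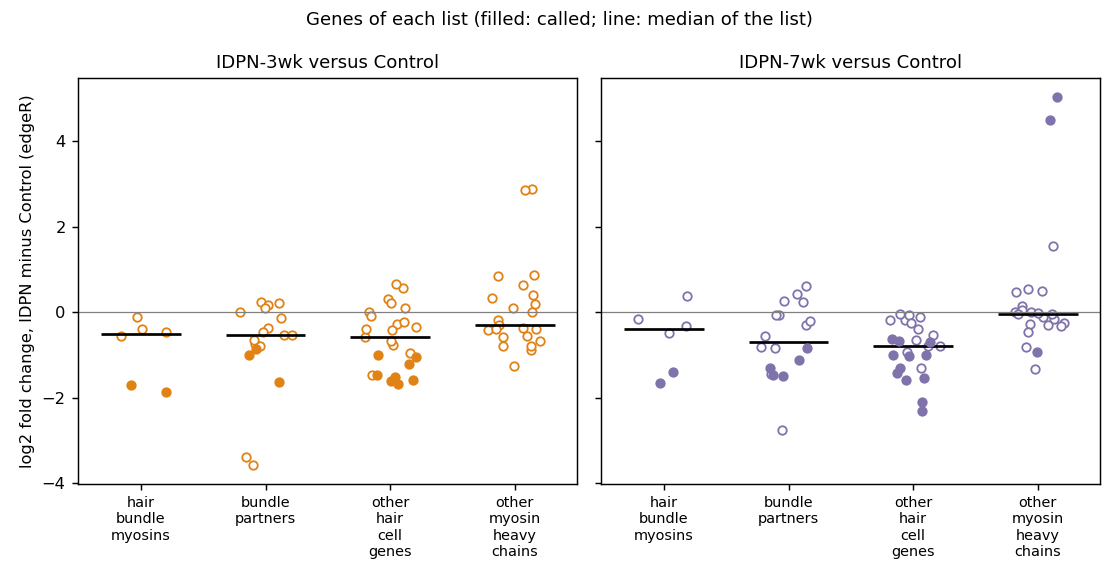
Log2 fold change of every tested gene in 4 lists, IDPN-3wk versus Control (left) and IDPN-7wk versus Control (right), filled where called, with the median of each list as a line. Medians of the 6 myosins, 18 bundle partners and 25 other HC genes lie below 0 in both panels, and 2 sarcomeric myosins stand at the top at 7 weeks.

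Other HC genes gave the setting in which the myosins changed. Of 25 tested, 8 were called lower at 3 weeks and 12 at 7 weeks, against 1.21% and 3.13% of all genes tested. None was called higher, and the median log2 fold change was -0.58 and -0.78. The log2 fold change was below 0 for 19 of the 25 at 3 weeks and for all 25 at 7 weeks. Above 0 at 3 weeks were Calb1 (0.65), Gfi1 (0.55), Chrna9 (0.31), Fscn2 (0.21), Cib2 (0.10) and Tmie (0.0036). The smallest adjusted p at 3 weeks belonged to Kcna10, a potassium channel (-1.21), Atp2b2, the calcium pump of the bundle (-1.51), Loxhd1, a stereocilia membrane protein (-1.68), and Cacna1d, the calcium channel of the ribbon synapse (-1.46). At 7 weeks they were Kcna10 (-1.58), Atp2b2 (-1.54), Xirp2, an actin-binding protein (-2.09), and Otof (-1.003). The falls of Myo15a and Myo3b at 3 weeks (-1.85 and -1.69) were as large as those of these genes, and Myo7a and Myo6 lay above the median of the list at both times. The paper names Kcna10, Atp2b2 and Xirp2 among the genes lower in all its comparisons, which include these libraries. The list is therefore not independent of these data.

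Myosin heavy chains outside the bundle were tested for comparison (23 of 31 listed). None was called at 3 weeks by edgeR, where 1.21% of all genes tested were called lower and 0.438% higher. An unadjusted edgeR p below 0.05 was found for 7 of the 23, as for 2444 of all 15517 genes tested. DESeq2 called 2 of the 23. The 7-week calls by edgeR were 1 lower and 2 higher, against 3.13% and 2.00% of all genes tested. At 7 weeks Myo16, a myosin known from the brain, was called lower: it went from between 48.9 and 55.3 CPM in Control to between 23.6 and 31.1 CPM (log2 fold change -0.93, adjusted p = 0.00732). Myh4, a heavy chain of fast skeletal muscle, was called higher: it read 16.4, 3.26 and 0.760 CPM in Control and 157, 143 and 161 CPM in IDPN-7wk (4.48, adjusted p = 0.00889). Myh3, the embryonic muscle heavy chain, was also called higher (5.03, adjusted p = 0.0345) from at most 2 counts in a Control library to between 52 and 67 counts in IDPN-7wk. Of 5 skeletal muscle markers only Tnnc2 and Mylpf passed the filter on low counts, and Tnnc2, a muscle troponin, made up most of their summed level: it was called lower at 7 weeks (-2.05, adjusted p = 0.00269) and Mylpf was not called. The sum was between 12.3 and 20.4 CPM in Control and between 3.40 and 5.43 CPM in IDPN-7wk, with 1 of the 5 at 0 throughout Control and 1 of the 5 at 0 throughout IDPN-7wk. Sarcomeric myosins form a family of closely related genes, and how reads were divided among them was not tested.

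Markers of other cells moved as well, and their part in the values above was not tested. The summed level of 7 supporting cell markers was between 12551 and 13120 CPM in Control, 7491 and 9439 in IDPN-3wk, and 5109 and 7371 in IDPN-7wk. Of the 7, 1 was called lower at 3 weeks and 3 at 7 weeks, against 1.21% and 3.13% of all genes tested. Otog made up most of the summed level in Control: it averaged 8473 CPM there, 4674 in IDPN-3wk and 3533 in IDPN-7wk. It was not called at 3 weeks (edgeR adjusted p = 0.0759). All 7 had a log2 fold change below 0 at both times, with a median of -0.34 and -0.78. The 6 Schwann cell markers summed to between 9158 and 11491 CPM in Control, 7378 and 9749 in IDPN-3wk, and 3097 and 6561 in IDPN-7wk. The 6 macrophage markers went from between 51.7 and 94.5 CPM in Control and 39.8 and 114 in IDPN-3wk to between 159 and 203 in IDPN-7wk. None of the markers in these 3 lists was at 0 throughout a group.

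The genes whose level followed each myosin most closely across the 9 libraries were sought among 11350 tested genes with a mean of at least 5 CPM, by the Pearson correlation of log2(CPM + 0.5). For Myo15a these were Tspoap1 and Dlec1 (r = 0.98 for both), for Myo3b Exoc4 (0.99), and for Myo6 Sh2d4b (0.99) and Sult4a1 (0.98). For Myo7a they were Poc5 (0.93) and Zfp136 (0.92), for Myo3a Wdr7 (0.94) and Cpeb4 (0.91), and for Myo1c Slc6a14 (0.99) and Ifrd1 (0.97). The libraries share the difference between groups, so these values describe likeness in 9 libraries and carry no test.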

How the data were processed

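Vestibular RNA of 9 male rats (3 per group, taken from 1 batch in the labels) was sequenced after SMARTseq2 amplification without molecular identifiers. The deposited expected counts were made by the authors with STAR 2.5.3a and RSEM (1.3.0 per the labels) on Rnor6.0 and rounded to whole numbers; the strand setting is not given in the sources used here, so antisense and overlapping genes cannot be told apart. CPM were computed after TMM scaling. Genes were filtered with filterByExpr and tested with the edgeR 4.0.16 quasi-likelihood test (R 4.3.3, robust, 1 fit of 9 libraries, 6 residual degrees of freedom), with Benjamini-Hochberg adjustment and a 1.5-fold limit. Control rats of both time points form 1 group, so both comparisons share them. Ratios to Myo7a used log2(CPM + 0.5) and an exact permutation test. The tests were checked on simulated data. DESeq2 1.42.0, other scalings, filters, thresholds and left-out libraries were alternatives.

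All myosins were named, with up to 4 called genes per list, comparison and direction by smallest adjusted p, the partners of a member, and the 2 genes most like each member, 1 of which is not reported here. Markers of neurons, fibroblasts, melanocytes, dark cells and endothelium were also summed: neuron markers were at 104 to 119 CPM in Control and 62.4 to 78.5 CPM in the exposed groups, and the ranges of the other 4 lists overlapped Control at 3 weeks. Of the 7 neuron markers only Snap25 was called, lower at both times (38.6 CPM in Control, 12.9 in IDPN-3wk and 10.7 in IDPN-7wk). The log2 fold change was below 0 for 4 of the 7 at 3 weeks and for 6 at 7 weeks. At 7 weeks endothelium markers (163 to 233 CPM, against 150 to 151 in Control) and melanocyte markers (405 to 442 CPM, against 446 to 476) did not overlap Control. Members and lists were chosen with earlier results of these data known. The libraries of a group differed by more than sampling noise. The SE of a log2 fold change was its absolute size divided by the square root of the edgeR F statistic. It therefore rests on a spread estimate partly shared across genes. Intervals built from it cover the spread between these rats, and floors cover counting error only.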

Additional observations from a re-analysis of the deposited data

How the results depend on the processing

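Myo15a and Myo3b were the called myosins in IDPN-3wk and in IDPN-7wk versus Control under all 19 alternatives, joined by Myo6 only without a fold limit, and no myosin was called between the exposure times. Over the alternatives the log2 fold change of Myo15a ranged from -2.19 to -1.72 at 3 weeks and from -1.76 to -1.52 at 7 weeks, and that of Myo3b from -1.86 to -1.35 and from -1.47 to -1.26. With DESeq2 the adjusted p of Myo7a at 3 weeks was 0.0381, still under the fold limit, and the genes called in all numbered 741, 1317 and 527 in the 3 comparisons (IDPN-3wk and IDPN-7wk versus Control, and IDPN-7wk versus IDPN-3wk), against 256, 796 and 75 with edgeR. Without the 3 libraries with fewer detected genes they numbered 219, 1563 and 54.

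Some values that were not called changed sign. Myo1c at 3 weeks ranged from -0.25 to 0.10 over left-out libraries, was 0.10 without Control replicate 3 and 0.31 without the 3 libraries. Between 7 and 3 weeks (0.060 and 0.30 with all libraries) Myo7a ranged from -0.033 to 0.11 and was -0.014 without IDPN-3wk replicate 3 and -0.033 without IDPN-7wk replicate 1, and Myo3b was -0.00075 without the 3 libraries. The ratio of Myo3a to Myo7a ranged from -0.12 to 0.17 over left-out libraries and was -0.092 for IDPN-3wk alone. The ratios of Myo15a and Myo3b kept their size, at -1.46 to -1.31 and -1.32 to -1.04 over left-out libraries. Leaving out any Control library raised their adjusted exact permutation p to 0.0893. Fewer libraries leave fewer assignments, so the smallest p that the test can give rises. The 6 of 6 exposed libraries still lay below the remaining Control libraries for both ratios. In IDPN-3wk alone the ratios of Myo15a and Myo3b were -1.46 and -1.30 (adjusted 0.250), and in IDPN-7wk alone -1.31 and -1.05 (adjusted 0.167). In each, 3 against 3 libraries cannot go below p = 0.1 in the exact permutation test.

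Bundle partners called at 3 weeks (3) numbered 1 when only the 2 groups were fitted or above a 2-fold limit, 5 without the 3 libraries, and 1 to 3 over left-out libraries. At 7 weeks (5) they numbered 8 with DESeq2 or only the 2 groups, 9 without the 3 libraries, and 2 to 6 over left-out libraries. Between 7 and 3 weeks (0) they numbered 1 with DESeq2, with no filter or with a minimum of 10 counts per library, and 0 to 1 over left-out libraries. Other myosin heavy chains called at 3 weeks (0) numbered 2 with DESeq2, 1 with that minimum, and 0 to 1 over left-out libraries. At 7 weeks (3) they numbered 5 with library totals only. Between 7 and 3 weeks (0) they numbered 1 with DESeq2 or only the 2 groups. Other HC genes called between 7 and 3 weeks (0) numbered 1 with DESeq2 and 0 to 1 over left-out libraries. The causes were not tested. No paired analysis was possible because the labels number no replicates. Library titles open with a code of unstated meaning: Control libraries carry 1 code that no exposed library has, so it cannot be told apart from the group. IDPN-3wk replicates 2 and 3 share 1 code, IDPN-7wk replicates 2 and 3 share another, and replicate 1 of both exposed groups carries the remaining code. With 3 rats per group the interval of Myo3a at 3 weeks ran from -1.12 to 0.19.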
